A study of Homo sapiens with 18 samples.

Results

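The APOBEC3 genes lie side by side on human chromosome 22 and encode cytidine deaminases of single-stranded DNA and RNA. The 7 genes APOBEC3A, APOBEC3B, APOBEC3C, APOBEC3D, APOBEC3F, APOBEC3G and APOBEC3H were taken by symbol from a table of 61552 gene rows. They were picked because APOBEC3G was nearly silent in one of the mutant lines, M3. Differences in their level between M3 and WT or N108 are therefore given as a description and were not tested, while the response to TNF within M3 was. Of the 19038 genes with enough counts for a test, 6 were APOBEC3 genes, and APOBEC3A was left out for low counts.

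The cells were HCT116, a human colorectal carcinoma line, carrying a knock-in of the NF-κB inhibitor IκBα, named IκBα-SOF in the design. The 3 genotypes were the N108 mutant, the M3 mutant (residues H84, E85 and E86 changed to alanine) and the wild-type knock-in (WT), which served as the control and carried a knock-in too. Each was sequenced after human TNFα at 0.1 µg/mL for 40 min and untreated, with 3 libraries in each of the 6 groups. The labels name no more than 1 line per genotype, so the mutation and any difference between lines cannot be told apart. Nothing says that replicates came from separate cultures, so the spread behind each p-value may be partly technical. The sources used here do not state the clonal origin of the lines.

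APOBEC3 proteins convert cytosine to uracil in nucleic acids and belong to the innate defence against retroviruses and retrotransposons. APOBEC3D, APOBEC3F, APOBEC3G and APOBEC3H are known for restricting HIV-1 that lacks its Vif protein, and APOBEC3A and APOBEC3B for C-to-T mutations in tumour genomes. Interferon, NF-κB and the DREAM repressor complex are known regulators of different members in other cell types.

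Total counts per library ran between 49021907 and 76947190. Levels are given in CPM, the usual depth-normalized unit, after TMM scaling of library totals, and fold changes on the log2 scale. NFKBIA, which encodes IκBα, averaged 276 ± 19.5 CPM with TNF and 30.3 ± 1.82 CPM untreated in N108, 966 ± 20.9 and 77.9 ± 1.17 CPM in M3, and 758 ± 19.8 and 91.6 ± 4.57 CPM in WT (SD, n = 3 each). A count per gene does not show the edited residues. Of 14 colon epithelium markers 10 reached 1 CPM, and CDX1, VIL1, CDH17 and LGALS4 did not in any group mean. The summed level of 15 leukocyte markers was 8.72 to 9.77 CPM in untreated N108, 7.67 to 8.52 CPM in untreated M3 and 11.1 to 11.5 CPM in untreated WT. Most of that sum was CORO1A, which averaged 7.15, 6.42 and 6.56 CPM in the same 3 groups. LYZ averaged 0.113, 0.207 and 2.67 CPM there. CD3D, MS4A1, TYROBP and NKG7 were at 0 in all 18 libraries, and PTPRC, the general leukocyte marker, had 1 count. The part of these markers in the APOBEC3 levels was not tested.

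The genes arose by duplication, so the sequences matter for how well the counts tell them apart. The stretches below are the longest identical runs in the coding sequences of 3 pairs, copied from GENCODE 29 transcripts and read 5′ to 3′ on the plus strand of chromosome 22. They are shown because a 50-base read inside them carries no base that separates the pair. The reads were paired, and how far mates outside these runs separate the genes was not examined. The first run opens the coding sequences of APOBEC3F and APOBEC3G, and its start codon is in capitals. In the second, capitals mark the 73 bases that APOBEC3C also holds. The third has no capitals.
APOBEC3F/APOBEC3G: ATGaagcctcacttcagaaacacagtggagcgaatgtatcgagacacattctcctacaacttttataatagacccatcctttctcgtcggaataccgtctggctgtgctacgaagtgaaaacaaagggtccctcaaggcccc
APOBEC3D/APOBEC3F: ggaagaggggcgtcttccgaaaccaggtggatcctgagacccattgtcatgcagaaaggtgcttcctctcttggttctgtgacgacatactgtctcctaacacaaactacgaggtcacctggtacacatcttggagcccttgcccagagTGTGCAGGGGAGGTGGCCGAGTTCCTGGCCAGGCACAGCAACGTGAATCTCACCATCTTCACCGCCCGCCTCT
APOBEC3A/APOBEC3B: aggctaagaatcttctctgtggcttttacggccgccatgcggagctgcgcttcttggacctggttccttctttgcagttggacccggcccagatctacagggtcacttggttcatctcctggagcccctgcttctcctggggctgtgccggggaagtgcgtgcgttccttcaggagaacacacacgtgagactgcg
These runs are 142, 222 and 196 bases long. Over whole transcripts, the share of 50-base words that also occur in the transcripts of another gene was 28.7% for APOBEC3A, 40% for APOBEC3B, 1.28% for APOBEC3C, 86.2% for APOBEC3D, 21% for APOBEC3F, 7.73% for APOBEC3G and 0% for APOBEC3H. Most annotated words of APOBEC3C, APOBEC3G and APOBEC3H were thus their own, while APOBEC3G shared 349 words with APOBEC3F. Where the counted reads fell along the transcripts was not examined. How far the counts of APOBEC3C and APOBEC3G, in M3 above all, rest on bases of their own is therefore not known. For APOBEC3D, 83.2% of the exon bases also lie in AL022318.4, an overlapping annotated gene that had no more than 3 counts in any group. How the counting treated bases shared by both is not given, and the level of APOBEC3D is uncertain for that reason. APOBEC3A and APOBEC3B overlap on the same strand, over 14.8% and 18.4% of their exon bases. With APOBEC3B-AS1, on the other strand, the overlapped share of APOBEC3B is 23.3%. Whether strand was used in counting is also not given, so reads of the bases that APOBEC3B shares with APOBEC3B-AS1 cannot be told apart. APOBEC3B-AS1 had no more than 2 counts in any group.

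In the GRCh38 build, GENCODE 29 places all 7 genes on the plus strand. APOBEC3A (ENSG00000128383) spans chr22:38952741-38992778 and APOBEC3B (ENSG00000179750) chr22:38982347-38992804. APOBEC3C (ENSG00000244509) spans chr22:39014083-39020352, APOBEC3D (ENSG00000243811) chr22:39021113-39033276 and APOBEC3F (ENSG00000128394) chr22:39040604-39053910. APOBEC3G (ENSG00000239713) spans chr22:39077005-39087743, and APOBEC3H (ENSG00000100298), the last in the row, chr22:39097224-39104067.

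The level of the cluster was first compared per length, as CPM per kilobase of annotated exons. In untreated WT cells APOBEC3C, a member with a single deaminase domain, was at 158 ± 3.02, and APOBEC3F, which has a pair of such domains, at 43.8 ± 0.33 CPM per kilobase (SD, n = 3). APOBEC3B, a nuclear enzyme, followed at 12.5 ± 0.27, APOBEC3G at 9.26 ± 0.39, APOBEC3H at 5.66 ± 0.17 and APOBEC3D at 0.465 ± 0.054 CPM per kilobase. Neighbours in this order stood apart by more than their SDs. The order depends on annotated length, which was 5437 bases for APOBEC3G, 1896 for APOBEC3B and 1251 for APOBEC3H. In CPM, APOBEC3G stood above APOBEC3B in untreated WT, at 50.4 against 23.8. APOBEC3A had 2 counts in the 3 libraries together. APOBEC3C made up 74.1% of the summed per-length level in untreated N108, 75.2% in untreated M3 and 68.8% in untreated WT. The share of APOBEC3G in the same sum was 0.937% in N108, 0.0278% in M3 and 4.03% in WT. In untreated N108 the order per length was APOBEC3C, APOBEC3F, APOBEC3B, APOBEC3H, APOBEC3G, APOBEC3D, with APOBEC3H at 2.30 ± 0.31 and APOBEC3G at 0.849 ± 0.048 CPM per kilobase. In CPM, APOBEC3G stood above APOBEC3H there, at 4.62 against 2.87. In untreated M3, APOBEC3G stood below APOBEC3D, at 0.0137 ± 0.0051 against 0.14 ± 0.034 CPM per kilobase.

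APOBEC3G, a restriction factor of HIV-1, had the widest fold range between the lines among the 6 members tested. The untreated N108 libraries held 288, 332 and 287 counts of it, the untreated M3 libraries 6, 3 and 4, and the untreated WT libraries 3916, 3140 and 2622. With TNF there were 328, 223 and 278 counts in N108, 4, 7 and 4 in M3, and 2433, 2733 and 3073 in WT. The 3 genotypes did not overlap under either treatment, with N108 between M3 and WT. In bulk RNA, fewer cells with the transcript and less of it per cell cannot be told apart. In CPM, untreated N108 averaged 4.62 ± 0.26, untreated M3 0.0742 ± 0.0278 and untreated WT 50.4 ± 2.12 (SD, n = 3 each). APOBEC3G was lower in N108 than in WT by 10.9-fold untreated (log2 fold change -3.45 ± 0.07 SE, adjusted p = 7.7e-24, edgeR's quasi-likelihood test) and by 10.7-fold with TNF (-3.43 ± 0.07, adjusted p = 1.1e-23). In M3 its fitted log2 fold change against WT was -9.37 ± 0.37 untreated and -9.13 ± 0.34 with TNF, from 13 and 15 counts in the M3 groups. These 2 values depend on the prior count of the fit, and with a prior count of 2 they were -8.87 and -8.70.

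**Figure D1:**
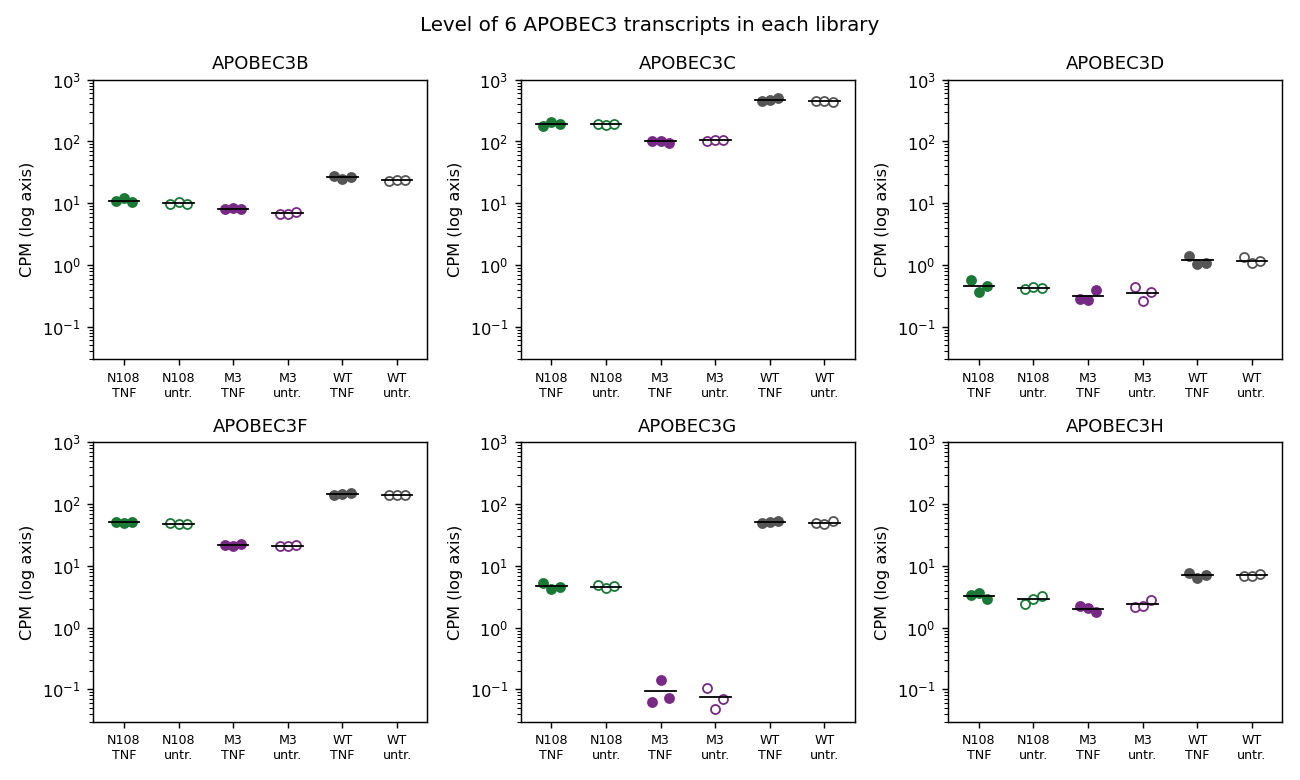
Level of 6 APOBEC3 transcripts in each of the 18 libraries, in CPM on a log axis, with filled points for TNF, open points for untreated cells and a line at the mean of each group of 3. The M3 libraries lie lowest and the WT libraries highest for each gene by group mean, and APOBEC3G in untreated M3 averages 0.0742 CPM against 50.4 CPM in untreated WT.

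The other 5 measured members were also lower in N108 than in WT, by smaller amounts. All 6 members tested were lower in untreated N108, where 21.6% of all genes tested were lower, and all 6 were lower in N108 with TNF, where 23.6% of all genes were. The median log2 fold change of the 6 was -1.38 untreated and -1.33 with TNF, beside 0.0051 and 0.022 over all genes tested. The N108 and WT groups of each of the 6 did not overlap under either treatment. The share of all genes without overlap is not given for this comparison, so nothing is read from that count. DESeq2 also called 6 of 6 lower in both comparisons. The shares of all genes above are those of edgeR, and the share that DESeq2 called lower is not given here. The WT libraries are the ones against which M3 was low, so the comparison of N108 with WT shares them with the contrast that led to the choice of the genes.

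APOBEC3F, an antiviral member, had 49.9, 47.4 and 47.9 CPM in untreated N108, against 143, 142 and 141 CPM in untreated WT. The libraries of each line were close together, and N108 was 2.93-fold lower (log2 fold change -1.55 ± 0.04 SE, adjusted p = 6.2e-21, edgeR's quasi-likelihood test). APOBEC3C had 191, 187 and 189 CPM in untreated N108 and 452, 450 and 436 CPM in untreated WT. It was lower by 2.36-fold in N108 (-1.24 ± 0.05, edgeR adjusted p = 2.6e-17). APOBEC3B, linked to mutations in tumours, had 9.65, 10.5 and 9.72 CPM in untreated N108 and 23.2, 24.2 and 23.9 CPM in untreated WT. The difference was 2.39-fold (-1.25 ± 0.06, edgeR adjusted p = 2.2e-15). APOBEC3H, whose human alleles differ in protein stability, had 2.45, 2.94 and 3.22 CPM in untreated N108 and 6.97, 6.95 and 7.32 CPM in untreated WT. Its 3 N108 libraries were spread more widely than those of WT, and all lay below them (-1.30 ± 0.11, edgeR adjusted p = 1.3e-10). APOBEC3D, the member with the lowest measured level among the 6, had 0.403, 0.443 and 0.425 CPM in untreated N108 and 1.33, 1.06 and 1.14 CPM in untreated WT (-1.47 ± 0.21, edgeR adjusted p = 1.3e-06). With TNF the log2 fold changes of these 5 genes between N108 and WT ran between -1.52 for APOBEC3F and -1.11 for APOBEC3H.

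In M3 the same genes lay lower still relative to WT by their group means. The M3 and WT groups did not overlap for 6 of 6 members untreated, with M3 lower, as was so for 30.6% of all genes tested, and for 6 of 6 with TNF, beside 31.4% of all genes. Nothing is read from these counts, since the genes were chosen on this contrast. APOBEC3F had 20.9, 21.1 and 21.5 CPM in untreated M3, and its log2 fold change against WT was -2.74 ± 0.05 (SE). APOBEC3C had 102, 107 and 105 CPM there, a log2 fold change of -2.09 ± 0.05, and APOBEC3B 6.65, 6.68 and 7.33 CPM, a log2 fold change of -1.79 ± 0.07. APOBEC3D was at -1.74 ± 0.23 and APOBEC3H at -1.56 ± 0.11. With TNF the log2 fold changes against WT were -1.71 for APOBEC3B, -1.79 for APOBEC3H and -1.90 for APOBEC3D. The other 5 members were thus between 2.95-fold and 6.7-fold lower in untreated M3 than in untreated WT, beside a fitted 664-fold for APOBEC3G. That fitted value rests on 13 counts in M3. Its log2 fold change of -9.37 became -8.87 with a prior count of 2.

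**Figure D2:**
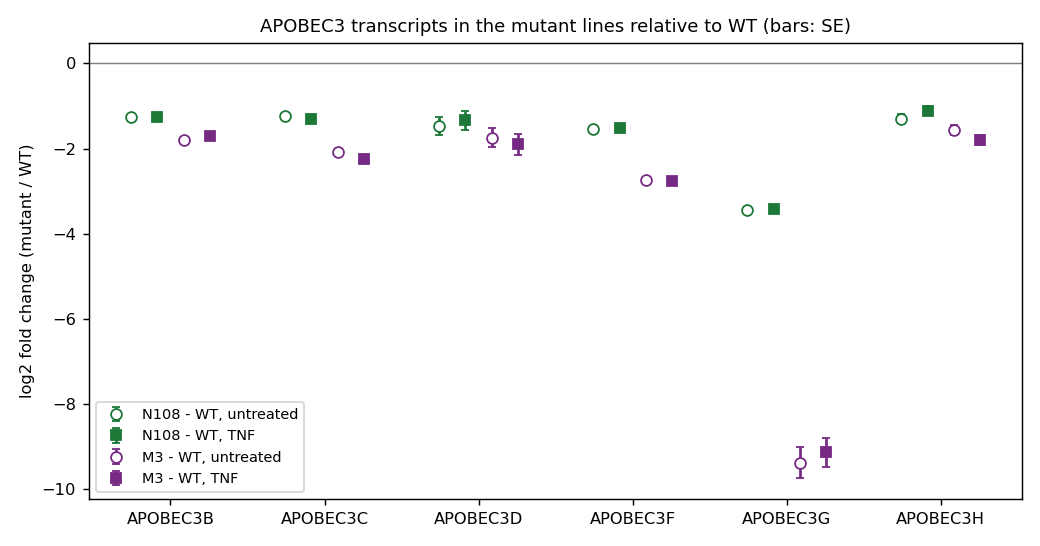
Log2 fold changes of 6 APOBEC3 genes in N108 and in M3 relative to WT, untreated (open circles) and with TNF (filled squares), with bars of 1 SE from the fit. All points lie below 0, and APOBEC3G reaches -3.45 in untreated N108 and -9.37 in untreated M3, both against the same WT libraries.

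Between the mutants, N108 was at the higher level where they stood apart. The untreated N108 and M3 groups did not overlap for 4 of 6 members, all higher in N108, as for 22.5% of all genes tested, and with TNF for 5 of 6, beside 23.1% of all genes. The log2 fold change of N108 over M3, untreated, was 5.92 ± 0.37 (SE) for APOBEC3G, 1.19 ± 0.05 for APOBEC3F, 0.85 ± 0.05 for APOBEC3C and 0.53 ± 0.07 for APOBEC3B. APOBEC3D overlapped between the mutants under both treatments, and APOBEC3H when untreated. Summed over the 7 genes, the untreated level was 255 ± 2.98 CPM in N108, 136 ± 3.14 CPM in M3 and 670 ± 7.61 CPM in WT (SD, n = 3 each).

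APOBEC3A, a myeloid-expressed deaminase in blood, was at the limit of detection in every group. It had 0 counts in all 6 N108 libraries, 2 counts with TNF and 2 untreated in M3, and 6 counts with TNF and 2 untreated in WT. A count of 0 in a group of 3 N108 libraries allows up to 0.0173 CPM with TNF and 0.0152 CPM untreated, taking 3 counts as the limit. Such limits allow for counting error alone, because PCR copies could not be set aside without molecular identifiers. No comparison of APOBEC3A was detectable at this depth.

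TNF for 40 min changed none of the 6 members within a genotype by edgeR's adjusted p. The count was 0 of 6 in N108, where 1.2% of all genes were called in either direction, 0 of 6 in M3, beside 1.38%, and 0 of 6 in WT, beside 5.18%. DESeq2 called 0 members in each genotype, with 1 member left without an adjusted p in N108. At an unadjusted p under 0.05, edgeR gave 1 member in each genotype, APOBEC3B. The share of all genes under this unadjusted threshold is not given here, so nothing is read from that count. APOBEC3B had 10.8, 11.9 and 10.3 CPM with TNF and 9.65, 10.5 and 9.72 CPM untreated in N108, which overlap. In M3 it had 7.94, 8.24 and 7.96 CPM with TNF and 6.65, 6.68 and 7.33 CPM untreated, and in WT 27.7, 24.9 and 26.6 CPM with TNF and 23.2, 24.2 and 23.9 CPM untreated. In M3 and in WT all TNF libraries lay above all untreated ones. The same held for APOBEC3C and APOBEC3F in WT and for APOBEC3F in N108. The share of all genes without overlap is not given for TNF, so nothing is read from this. The log2 fold changes were 0.14 ± 0.07 (SE) in N108, 0.22 ± 0.07 in M3 and 0.15 ± 0.06 in WT, with edgeR adjusted p-values of 0.31, 0.18 and 0.16.

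Averaged over the 3 genotypes, a summary chosen after these values were seen and given without a test, the log2 fold change of APOBEC3B with TNF was 0.17 ± 0.04 (SE). The averaged log2 fold changes of the other members were 0.02 ± 0.03 for APOBEC3C, -0.01 ± 0.14 for APOBEC3D, 0.05 ± 0.03 for APOBEC3F, 0.12 ± 0.17 for APOBEC3G and -0.01 ± 0.07 for APOBEC3H.

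The response of the members did not differ detectably between genotypes. For the interaction of TNF with N108 against WT 0 of 6 were called, beside 2.62% of all genes, and at an unadjusted p under 0.05 there was no member either. For the interaction of TNF with M3 against WT 0 of 6 were called, beside 0.315%, and APOBEC3C had an unadjusted edgeR p under 0.05 (-0.15 ± 0.07, adjusted p = 0.55). For N108 against M3 0 of 6 were called, beside 0.0788%, and APOBEC3H had an unadjusted p under 0.05 (0.42 ± 0.18, edgeR adjusted p = 0.32). Nothing is read from the unadjusted values, since the share of all genes under that threshold is not given here either. DESeq2 called 0 members in each of these 3 interactions.

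**Figure D3:**
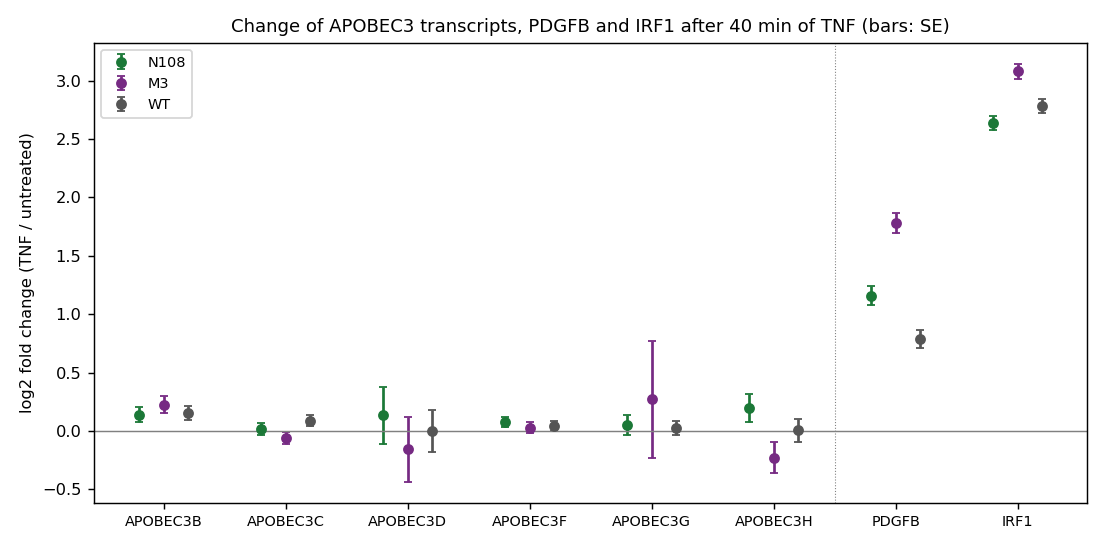
Log2 fold change with TNF over untreated cells in N108, M3 and WT for 6 APOBEC3 genes, and for PDGFB and IRF1 at the right, with bars of 1 SE from the fit. The APOBEC3 points lie between -0.23 and 0.27, while IRF1 lies at 2.64 in N108, 3.08 in M3 and 2.78 in WT.

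Some regulators known to act on APOBEC3 genes in other cell types responded to TNF. Of 26 such genes tested, 4 were higher and 0 lower with TNF in N108, 5 higher and 0 lower in M3, and 5 higher and 1 lower in WT. Genes called in either direction were 1.2%, 1.38% and 5.18% of all genes tested in these comparisons. The median log2 fold changes of the 26 were 0.07 in N108, 0.03 in M3 and 0.07 in WT, beside 0.0027, -0.0034 and 0.011 over all genes tested. IRF1, an interferon-regulated transcription factor, averaged 130 ± 14.9 CPM with TNF and 20.8 ± 1.33 CPM untreated in N108, 152 ± 2.18 and 17.98 ± 0.99 CPM in M3, and 230.0 ± 7.61 and 33.4 ± 0.53 CPM in WT. NFKB2, a subunit of NF-κB, was higher with TNF in the 3 genotypes by 0.56 ± 0.05 in N108, 0.47 ± 0.05 in M3 and 0.41 ± 0.05 in WT on the log2 scale, and MAFF, a small Maf factor, by 1.18 ± 0.06, 1.73 ± 0.06 and 1.21 ± 0.05. All of these passed edgeR's adjusted p of 0.05.

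In N108 against WT, untreated, 15 of the 26 regulators were lower and 4 higher, and their median log2 fold change was -0.22, beside 21.6% lower and 20.9% higher over all genes tested and a median of 0.0051. IRF7, a factor of the interferon response, averaged 5.29 ± 0.26 CPM in untreated N108 and 15.7 ± 0.30 CPM in untreated WT (-1.57 ± 0.08 SE, edgeR adjusted p = 1.9e-15). RBL2 and LIN54, both of the DREAM complex, were lower by log2 fold changes of -0.65 ± 0.05 and -0.77 ± 0.07 (edgeR adjusted p = 5.1e-12 and 4.0e-10). Other genes of that complex on the list went both ways. RBL1, E2F4 and LIN9 averaged 27.0, 135 and 11.9 CPM in untreated N108, and 25.2, 133 and 9.17 CPM in untreated WT. LIN37 and LIN52 averaged 3.82 and 14.2 CPM in untreated N108, and 4.16 and 16.6 CPM in untreated WT. RBL2 averaged 38.1 CPM in untreated N108, 70.2 CPM in untreated M3 and 59.97 CPM in untreated WT, so that it was not lower in M3, whereas LIN54 averaged 25.8, 22.8 and 43.9 CPM in the same groups. The retroviral and retrotransposon restriction factors had 13 of 24 tested members lower and 3 higher, with a median of -0.20. Among them BST2, which tethers virions to the cell surface, averaged 2.74 ± 0.098 CPM in untreated N108 and 15.3 ± 0.76 CPM in untreated WT (-2.48 ± 0.09, edgeR adjusted p = 1.3e-18). IFITM3, which blocks viral entry, and TRIM22 were lower by log2 fold changes of -0.80 ± 0.05 and -1.22 ± 0.14, and passed the same test.

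Repair genes that act on the uracil left by deamination had small fold changes in untreated N108 against WT. In untreated M3 against WT, given without a test, their log2 fold changes ran between -0.31 and 0.60. Of 19 tested, 9 were lower and 2 higher in untreated N108, with a median log2 fold change of -0.08 and no value beyond -0.33 or 0.31. APEX1, an endonuclease of base excision repair, was higher (0.31 ± 0.04, edgeR adjusted p = 6.1e-07), and APEX2, a related endonuclease, lower (-0.33 ± 0.05, edgeR adjusted p = 2.0e-06). UNG, the main uracil-DNA glycosylase, had a log2 fold change of 0.06 ± 0.04 and was not called. Of 8 other nucleic acid deaminases tested, 3 were lower and 2 higher, with a median of -0.02. ADAR, which edits adenosine in RNA, was lower (-0.28 ± 0.04, edgeR adjusted p = 5.3e-06), and ADAT2, a tRNA deaminase subunit, higher (0.68 ± 0.07, edgeR adjusted p = 2.2e-08). Of 12 genes for partners of APOBEC3 proteins in ribonucleoprotein granules, 4 were lower and 1 higher, with a median of -0.02. Lower genes were 21.6% and higher genes 20.9% of all genes tested. APOBEC1, APOBEC2 and APOBEC4, related deaminases outside the cluster, were below the limit for a test. APOBEC2 and APOBEC4 had 0 counts in all libraries, and APOBEC1, the apolipoprotein B editing enzyme, had 27 counts in the 18 libraries together.

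The genes around the cluster were examined by distance from its outer ends. Within 500 kb, 33 other genes were tested, of which 12 were lower and 3 higher in untreated N108 than in untreated WT, with a median log2 fold change of -0.22. Over all genes tested 21.6% were lower and 20.9% higher. With TNF 12 were lower and 5 higher, beside 23.6% and 23% of all genes. Within 200 kb, a distance chosen after the values were seen, 9 of 10 were lower untreated, with a median of -0.78, and 7 of 10 with TNF. These counts include AL031846.1, which lies inside the cluster and passed the count filter through its WT libraries alone. The untreated counts also include ENSG00000235209, whose call was lost under other settings. Between 0.5 and 2 Mb the median was 0.05 over 54 genes, and over the 318 tested genes more than 5 Mb away on chromosome 22 it was -0.07.

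On the side of APOBEC3A the nearest tested genes were ENSG00000235209, at 28.03 kb, and CBX6, a chromobox protein gene of the Polycomb group, at 80.4 kb. ENSG00000235209 had a log2 fold change of -0.80 ± 0.31 (SE) in untreated N108 (edgeR adjusted p = 0.039), from a level of 0.411 CPM in WT. It was no longer called with DESeq2 (adjusted p = 0.064), without a low-count filter (edgeR adjusted p = 0.074), or when any of the 3 untreated N108 libraries or untreated WT replicate 1 or 3 was left out, with edgeR adjusted p-values of up to 0.126. CBX6 averaged 299 ± 10.98 CPM in untreated N108, 294 ± 7.41 CPM in untreated M3 and 541 ± 19.5 CPM in untreated WT. In N108 it was lower than in WT by 0.86 ± 0.04 on the log2 scale (edgeR adjusted p = 2.6e-15). On the side of APOBEC3H the nearest were CBX7, another chromobox gene, at 16.1 kb, and PDGFB, which encodes a growth factor subunit, at 119 kb. CBX7 averaged 32.9 ± 1.79 CPM in untreated N108, 24.2 ± 0.87 CPM in untreated M3 and 56.2 ± 1.97 CPM in untreated WT (N108 over WT, -0.77 ± 0.05, edgeR adjusted p = 8.4e-13). PDGFB averaged 12.1 ± 0.46, 7.52 ± 0.052 and 33.2 ± 1.23 CPM in the same 3 groups (N108 over WT, -1.45 ± 0.08, edgeR adjusted p = 1.4e-13). RPL3, a ribosomal protein gene at 209 kb, was higher in N108 than in WT by 0.35 ± 0.05 (edgeR adjusted p = 5.4e-07). It was named after its value was seen, as the nearest gene that moved the other way on that side.

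PDGFB responded to TNF in each genotype. It was higher with TNF by 1.16 ± 0.08 in N108, 1.78 ± 0.09 in M3 and 0.79 ± 0.07 in WT on the log2 scale (edgeR adjusted p = 1.7e-10, 5.7e-14 and 5.6e-08). The response of PDGFB in M3 exceeded that in WT by 0.99 ± 0.11 (interaction, edgeR adjusted p = 3.3e-05). Whether its response differed from that of the APOBEC3 genes was not tested.

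**Figure D4:**
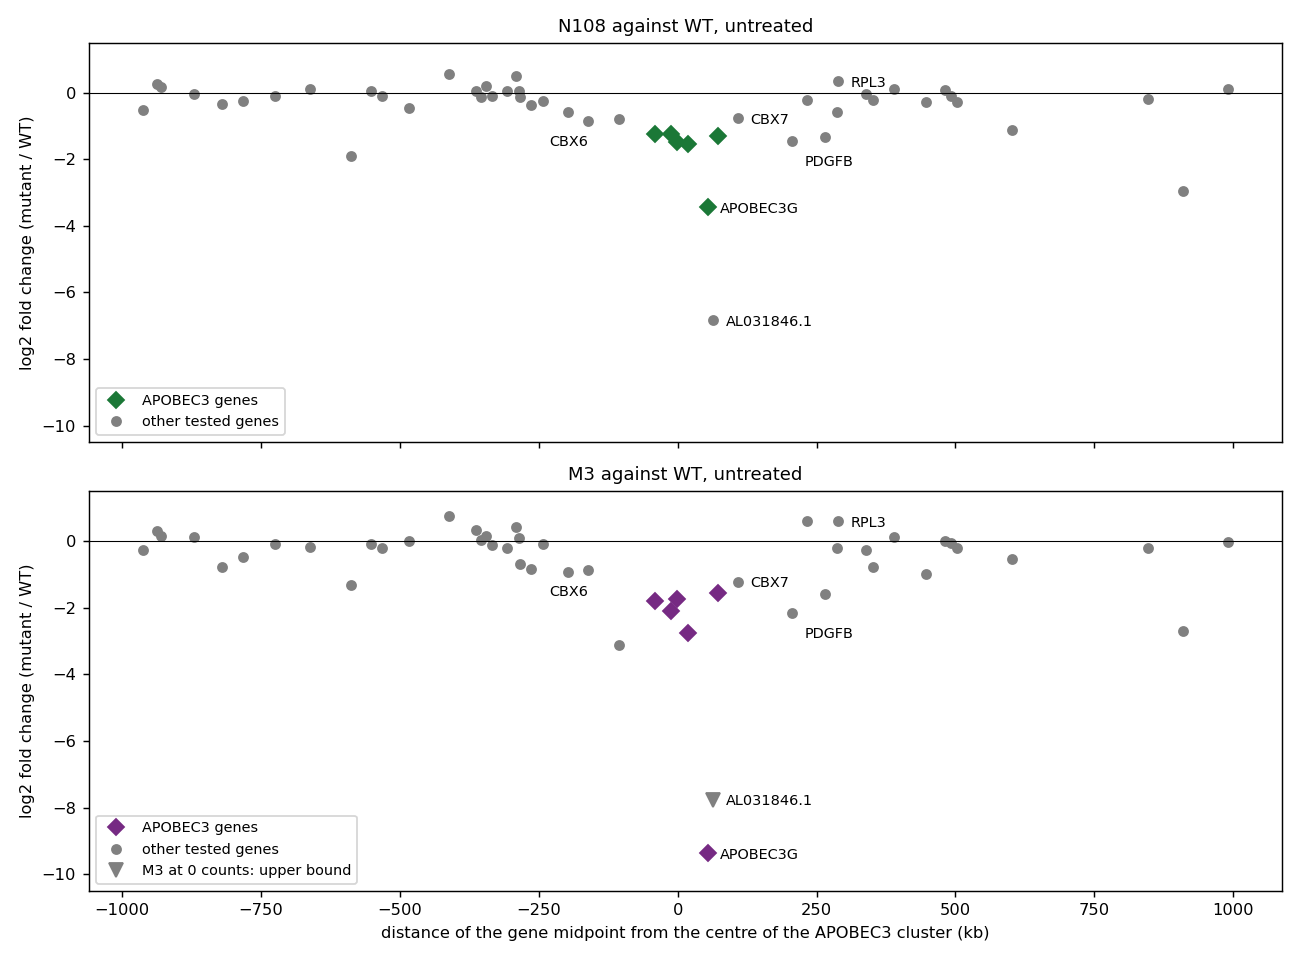
Log2 fold change of each tested gene within 1000 kb of the centre of the APOBEC3 cluster, for untreated N108 over WT (top) and untreated M3 over WT (bottom), by the distance of the gene's midpoint in kb, with diamonds for APOBEC3 genes. The lowest points, APOBEC3G and AL031846.1, lie inside the cluster, and the triangle for AL031846.1 marks a bound because M3 held 0 counts.

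Inside the cluster, between APOBEC3G and APOBEC3H, lies AL031846.1 (ENSG00000225720), annotated as a transcribed pseudogene that shares no 50-base word with the transcripts of APOBEC3G. It had 4, 0 and 2 counts in the untreated N108 libraries, 0 in the 3 untreated M3 libraries and 282, 256 and 178 counts in the untreated WT libraries. With TNF it had 3, 0 and 3 counts in N108, 0 in the 3 M3 libraries and 174, 191 and 230 in WT. The gene passed the count filter through its WT libraries alone and was named after its values were seen, so no p-value is given. The counts of lower neighbours above include it. The fitted log2 fold change of N108 against WT was -6.83 ± 0.64 (SE) untreated, from 6 counts in N108. It was -7.80 without untreated N108 replicate 1 and -6.16 without replicate 2. Untreated M3 was at least 218-fold lower, taking 3 counts over the group as the floor. APOBEC3G stood at -3.45 in N108 against WT, and the difference from the pseudogene was not tested.

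Genes with a similar pattern over the 18 libraries were listed by Pearson's correlation of log2 CPM among 13528 candidates, as a description. The 5 most like APOBEC3G were LIPG (0.997), LCN2 (0.996), TSHZ1 (0.993), CHST6 (0.991) and TNS4 (0.991). LCN2, an iron-sequestering secreted protein, averaged 4.17 CPM in untreated N108, 0.44 CPM in untreated M3 and 27.2 CPM in untreated WT. Within the cluster the closest to APOBEC3G was APOBEC3F (0.979, rank 69) and then APOBEC3C (0.969, rank 142). The 5 most like APOBEC3B were TBC1D9 (0.992), TGM2 (0.992), TINAGL1 (0.992), ALDH4A1 (0.991) and SEMG1 (0.990). The libraries form 3 groups by genotype, so these values are not independent of genotype, and by Spearman's rank correlation 0 of the 5 remained in either list.

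One promoter of the 7 was in the RefSeq promoter table, that of APOBEC3H, at chr22:39096994-39097293 on the plus strand of GRCh38.p14. It is shown because APOBEC3H was lower in N108 together with its neighbours. Capitals mark its 1 CpG.
APOBEC3H promoter: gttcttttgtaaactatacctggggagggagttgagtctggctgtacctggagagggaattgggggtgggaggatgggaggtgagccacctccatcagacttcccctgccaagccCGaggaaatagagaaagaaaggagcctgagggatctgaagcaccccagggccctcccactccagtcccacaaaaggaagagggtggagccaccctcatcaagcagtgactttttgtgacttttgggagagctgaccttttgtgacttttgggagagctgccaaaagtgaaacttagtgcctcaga
Both strands of these 300 bases, with 53.3% GC, were searched. They held no match to the core of the interferon-stimulated response element (in 3.57% of 35116 promoters), to TTCNNNGAA (a STAT site, in 7.66%), to the NF-κB consensus (in 5.91%), or to the GC box GGGCGG (in 45%). The core promoter motif TATAAA, in 11.5% of promoters, was not found either. A CpG was present in 96% of the promoters searched.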

How the data were processed

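RNA of 18 HCT116 libraries was sequenced as paired reads of 50 bp, per the labels' protocols. The authors deposited a table of raw counts per gene and a normalized table on a log2 scale, and only the counts were tested. Per the submitters' processing notes, hg38 was the build, STAR 2.7.8 and Trim Galore 0.6.6 were used, and featureCounts (Subread 2.0.1) and DESeq2 1.38.3 are named too. Neither the annotation release nor the strand setting is given in the sources used here.

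Groups came from sample titles. The count test was that of edgeR 4.0.16 (R 4.3.3), and filterByExpr (minimum count 10) left 19038 genes with 99.97% of the counts, scaled by TMM. One robust quasi-likelihood model held a mean for each of the 6 groups, with 12 residual degrees of freedom. P-values are two-sided, adjusted by Benjamini-Hochberg over all genes tested and called below 0.05. Standard errors came from the fitted information scaled by the quasi-dispersion. CPM used TMM-scaled totals, which before scaling ran between 49021907 and 76947190 counts. Per-length levels used the exon union of GENCODE 29, which also gave positions and transcripts. Symbols came from a name table. Alternatives were DESeq2 1.42.0, other scalings and filters, a GC correction, a replicate block, other spans around the cluster and leaving out each library. The scripts were tested on simulated data. The checks of replicates found no pair of libraries within sampling noise.

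The members and gene lists were chosen with earlier results of these data known. Named genes were the 7 members, NFKBIA, the 5 genes most like APOBEC3G and APOBEC3B, up to 3 genes with the smallest p per list and comparison, and the nearest 2 tested genes on each side. UNG, RPL3, AL022318.4, AL031846.1, APOBEC3B-AS1, CORO1A, LYZ, RBL1, E2F4, LIN9, LIN37 and LIN52 were named after their values were seen.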

Additional observations from a re-analysis of the deposited data

How the results depend on the processing

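The counts of members called in the 8 planned comparisons kept their values under DESeq2, DESeq2 or upper quartile scaling, a stricter and no low-count filter, a GC correction, the replicate block, fits of the compared groups alone and leaving out each library. The fold changes of the members, of AL031846.1 and of the other genes given with a fold change in these comparisons kept their direction under the same settings. For the list genes those settings were added after the data were seen. ENSG00000235209 alone among the tested ones lost its call, under DESeq2, without a filter and without 5 single libraries, and was too low for the stricter filter. The fitted log2 fold change of APOBEC3G in M3 depended on the prior count. With a prior count of 2 it was -8.87 against WT untreated and -8.70 with TNF, and N108 over M3 was 5.43 untreated and 5.29 with TNF. Leaving out 1 library at a time gave -9.68 to -9.14 and -9.53 to -8.89 for M3 against WT, and 5.69 to 6.23 and 5.46 to 6.11 for N108 against M3. Replicate numbers did not pair libraries: 1 of 45 same-numbered pairs of deviations correlated above 0.1, with a range of -0.147 to 0.103, and 31 of 90 correlated best with their own number. With the replicate block the members called were 6 for N108 against WT under both treatments and 0 for TNF in each genotype.

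Counts over all genes moved more. TNF in N108 called 228 genes, 348 with DESeq2, 652 without a filter, 138 with its own groups alone and 143 (without N108 untreated replicate 2) to 1333 (without N108 TNF replicate 3) with 1 library left out. TNF in WT called 987 and 432 without WT TNF replicate 3. The interaction of TNF with N108 against WT called 498, 1111 with DESeq2, 1362 without a filter, 137 after GC correction, 177 with GC correction and the block, 183 without WT TNF replicate 3 and 2430 without N108 TNF replicate 3. With M3 against WT it called 60, 156 with DESeq2, 93 with upper quartile scaling, 265 without a filter, 217 after GC correction, 245 with the block too, 14 without WT untreated replicate 1 and 135 without N108 TNF replicate 2. For N108 against M3 it called 15, 49 with DESeq2, 9 with upper quartile scaling, 163 without a filter, 23 with GC correction and the block, 7 with its own groups and 650 without N108 TNF replicate 3. The cause of these shifts was not tested. Few counts limit APOBEC3A, and APOBEC3G in M3.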
